A study of Rattus norvegicus with 52 samples.

Results

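The 9 genes described here are markers of injury to the kidney tubule: Spp1, Havcr1, Lcn2, Clu, Vim, Vcam1, Cd44, Timp1 and Prom1. Every probe set carrying one of these symbols, or an older alias, was taken from both chips of the rat RAE230 set whatever its brightness, which gave 11 probe sets of the 31042 tested and 9 genes of the 13807 with a symbol. The values are those of the left kidney of 26 male rats in 6 groups formed by 3 strains and 2 diets. S is the inbred Dahl SS/Jr rat, a salt-sensitive model of hypertension, and ET3x1 and ET3x2 are congenic strains, in which a piece of an R rat chromosome replaces that of S. Weaning at 30 days was onto feed with 0.4% NaCl, called low salt, and at 39 to 41 days one group of every strain went onto 4% NaCl, called high salt, for 24 hours. Kidneys came from rats aged 40 to 42 days, 5 per diet in S and 4 per diet in ET3x1 and in ET3x2. As a model the design is limited in that every group carries the S background, no R rat was included, and the labels do not state the ends of the R pieces.

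Tubule cells that are stressed or damaged lose part of their specialised transport program and switch on secreted, adhesive and cytoskeletal proteins that healthy tubules make little of. Kidney injury molecule 1 (the product of Havcr1) and neutrophil gelatinase-associated lipocalin (the product of Lcn2) are measured in urine as injury markers for that reason, and osteopontin (the product of Spp1) is made by the distal nephron in health and more widely after injury. Several of the genes are also used by other kidney cells, Vim by mesenchymal, endothelial and podocyte cells and Vcam1 by activated endothelium.

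All log2 values below are the authors' deposited signals. Array medians on RAE230A lay between 7.47 and 7.52, arrays of that chip correlated with each other at 0.972 to 0.998, and no arrays were identical. Markers of the labelled tissue were present: 7 of 7 measured proximal tubule markers, 5 of 5 of the collecting duct and 4 of 5 of the thick ascending limb and distal tubule lay at or above the chip median, as did 8 of 11 leukocyte and 2 of 4 podocyte markers. On RAE230A the 3' minus 5' log2 difference of the Gapdh control, which rises as RNA or its copies are shortened, was 0.594 ± 0.026 (SD, n = 4) in ET3x1 rats on high salt against 0.877 ± 0.099 (n = 4) on low salt. It was 0.747 ± 0.107 against 0.948 ± 0.067 in ET3x2 rats (n = 4 each) and 0.812 ± 0.053 against 0.827 ± 0.072 in S rats (n = 5 each). The labels call the rats separate animals and give no litter or hybridisation batch. In a whole kidney, fewer cells of a type and less RNA per cell cannot be told apart.

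All 11 probe sets were on RAE230A and none on RAE230B. Spp1 (probe set 1367581_a_at, chromosome 14) was the brightest, with a mean of 11.71 that exceeded 98.3% of the chip. Prom1 (1368008_at, chromosome 14) averaged 9.78, Vim (1367574_at, chromosome 17) 9.59, Clu (1367784_a_at, chromosome 15) 9.22 and Vcam1 (1368474_at, chromosome 2) 8.72. Timp1 (1367712_at, chromosome X) averaged 8.20, Cd44 (1368921_a_at, chromosome 3) 8.12 and Lcn2 (1387011_at, chromosome 3) 7.62. Havcr1 (1387965_at, chromosome 10), at 6.86, lay below the chip median of 7.51 and was brighter than 37.1% of the chip. Clu and Cd44 each had a second, dimmer probe set (1388246_at at 6.71 and 1387952_a_at at 6.69). Different probe sets bind with different strength, so these means do not rank the genes by transcript number. A gene is counted below by its brightest probe set, and the dimmer ones are described apart. Over the 26 rats Spp1 also varied most of the members, with an SD of 0.495 that exceeded 99.5% of the chip, while the brighter Cd44 probe set varied least, with an SD of 0.096 that exceeded 15.5%.

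The sequences just before the annotated start are printed for the 3 genes whose signal was lower in both congenic strains (Spp1, Havcr1 and Vcam1) and for Prom1, which moved against the others on high salt. They are RefSeq sequences of the GRCr8 assembly, 250 bases before to 50 after the start, 5′ to 3′ on the gene's own strand, and 8 of the 9 genes had an entry. Motifs were searched on both strands, and capitals mark the matches. In Spp1 and Vcam1 these are the letters TATAAA that were searched for the TATA box. Whether they act as one at these positions was not tested. In Prom1 they are the letters GGGCGG, the box that the SP1 factor binds.
Spp1, chr14:5619755-5620054, minus strand: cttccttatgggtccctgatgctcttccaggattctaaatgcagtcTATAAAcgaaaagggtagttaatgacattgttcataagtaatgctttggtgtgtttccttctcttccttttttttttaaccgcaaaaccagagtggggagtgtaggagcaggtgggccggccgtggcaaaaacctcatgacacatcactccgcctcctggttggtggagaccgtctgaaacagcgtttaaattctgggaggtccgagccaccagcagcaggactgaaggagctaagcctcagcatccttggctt
Havcr1, chr10:31629528-31629827, plus strand: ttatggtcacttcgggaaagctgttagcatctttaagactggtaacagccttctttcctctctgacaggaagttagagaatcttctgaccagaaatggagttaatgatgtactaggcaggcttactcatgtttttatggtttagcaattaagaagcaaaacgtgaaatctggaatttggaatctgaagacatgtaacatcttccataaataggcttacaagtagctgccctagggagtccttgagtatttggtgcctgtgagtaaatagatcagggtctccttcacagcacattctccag
Vcam1, chr2:206742734-206743033, minus strand: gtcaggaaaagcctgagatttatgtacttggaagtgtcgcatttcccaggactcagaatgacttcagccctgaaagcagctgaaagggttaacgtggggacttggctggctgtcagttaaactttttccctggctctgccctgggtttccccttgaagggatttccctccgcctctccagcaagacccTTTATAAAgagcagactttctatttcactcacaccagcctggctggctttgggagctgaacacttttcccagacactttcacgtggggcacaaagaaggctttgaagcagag
Prom1, first of 2 entries, chr14:71202395-71202694, plus strand: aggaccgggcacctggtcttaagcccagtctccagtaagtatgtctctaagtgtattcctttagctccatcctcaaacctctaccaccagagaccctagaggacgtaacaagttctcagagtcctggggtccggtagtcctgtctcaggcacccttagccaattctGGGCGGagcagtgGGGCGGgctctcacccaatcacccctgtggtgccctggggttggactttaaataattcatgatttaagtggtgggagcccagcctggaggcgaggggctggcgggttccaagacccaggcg
The Spp1 window held 1 TATAAA match, which begins at position -204 from the start, the Vcam1 window 2 that overlap on opposite strands, the Prom1 window 2 SP1 boxes and the Havcr1 window none of the motifs searched. Among the other members Vim had 1 TATA match and 1 SP1 box, Timp1 had 1 SP1 box, and the second Prom1 entry had 1 AP-1 match (TGANTCA). No member window held the exact letter pattern that was searched for NF-kB. Other spellings of an NF-kB site were not searched. The member windows are therefore not shown to lack such a site. That of Vcam1 holds the letters gggtttcccc and gggatttccc, which the searched pattern does not cover. Whether NF-kB binds them was not tested. Of all 33469 promoter windows 14.22% held TATAAA, 33.06% the SP1 box, 7.329% the AP-1 motif and 1.53% the NF-kB pattern searched.

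**Figure D1:**
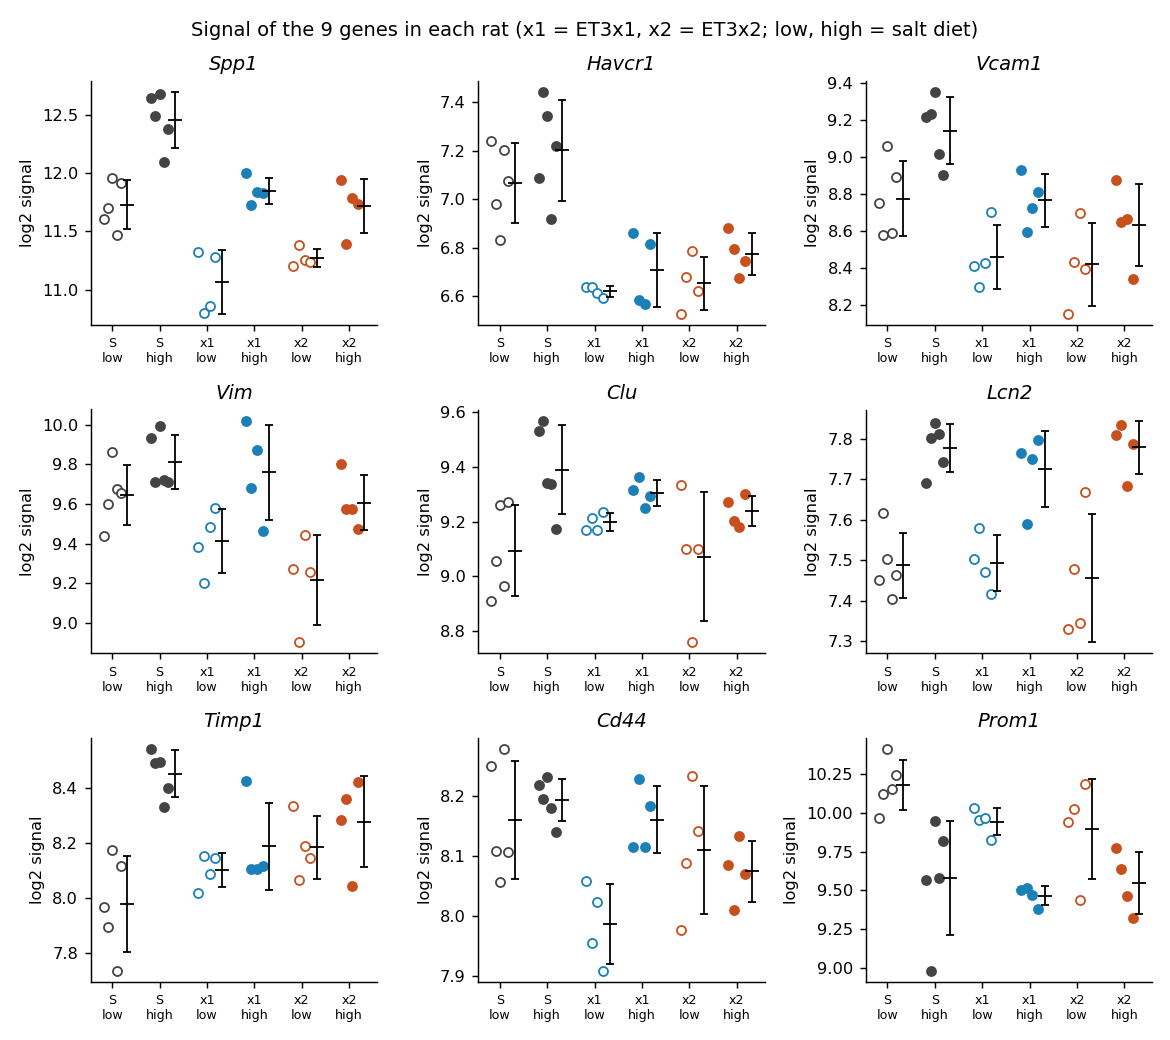
Deposited log2 signal of each of the 9 genes (brightest probe set; vertical axes differ) in every rat, by strain and diet; open points are low salt, filled points high salt, and the bar beside each group is its mean ± SD (n = 5 for S, 4 otherwise). Spp1 and Havcr1 of every ET3x1 and ET3x2 rat lie below every S rat of the same diet, and Spp1 and Lcn2 of every high-salt rat lie above every low-salt rat of the same strain.

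The strain comparison asks which markers differ between S kidneys and kidneys that carry an R segment, and the series' stated interest is in genes of altered activity within the ET3x2 segment. Averaged over both diets, 4 of the 9 genes were lower in the 8 ET3x2 rats than in the 10 S rats: Spp1, Havcr1, Vcam1 and Vim. None was higher, beside 24.8% of all probe sets called in either direction. In ET3x1 the genes Spp1, Havcr1 and Vcam1 were lower and none was higher, 3 of 9 beside 30.4% of all probe sets, which is a share close to the background. The median change of the 9 genes was -0.16 in ET3x2 and -0.14 in ET3x1, against 0.01 and -0.01 over all probe sets. Both comparisons use the same S rats, so they are not independent. Calls are limma's at a Benjamini-Hochberg adjusted p below 0.05 over both chips, two-sided. The members and the lists below were chosen with earlier results of these data known. Their counts beside the share of all probe sets are therefore descriptive and carry no test.

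Spp1 encodes osteopontin, a secreted phosphoprotein that binds integrins and CD44. The 5 S rats on low salt read 11.60, 11.70, 11.96, 11.47 and 11.92, and the 5 on high salt 12.64, 12.49, 12.68, 12.09 and 12.37. ET3x1 rats read 11.32, 10.81, 10.86 and 11.28 on low salt and 12.00, 11.73, 11.84 and 11.83 on high salt. ET3x2 rats read 11.20, 11.38, 11.25 and 11.24 on low salt and 11.94, 11.40, 11.78 and 11.74 on high salt. No congenic rat reached the lowest S rat of its own diet, and in each strain every high-salt rat lay above every low-salt rat. Averaged over diets, Spp1 was 1.52-fold lower in ET3x2 than in S (log2 change -0.60 ± 0.09 SE, limma adjusted p = 6.82e-05) and 1.55-fold lower in ET3x1 (-0.64 ± 0.09, limma adjusted p = 2.01e-05). Those changes were larger in size than those of 99.8% of all probe sets in each comparison. The order of group means ran from ET3x1 low salt (11.07 ± 0.27 SD, n = 4) through ET3x2 low salt (11.27 ± 0.08, n = 4), ET3x2 high salt (11.71 ± 0.23, n = 4), S low salt (11.73 ± 0.21, n = 5) and ET3x1 high salt (11.85 ± 0.11, n = 4) to S high salt (12.46 ± 0.24, n = 5). The 2 lowest groups overlapped each other, and so did the 3 middle ones.

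Havcr1 encodes kidney injury molecule 1, a receptor for phosphatidylserine on dying cells that injured proximal tubule cells display. S rats read 7.24, 6.98, 6.83, 7.20 and 7.08 on low salt and 7.09, 7.44, 7.34, 6.92 and 7.22 on high salt. ET3x1 rats read 6.64, 6.64, 6.61 and 6.59 on low salt and 6.86, 6.58, 6.57 and 6.82 on high salt. ET3x2 rats read 6.53, 6.68, 6.78 and 6.62 on low salt and 6.88, 6.79, 6.67 and 6.74 on high salt. As with Spp1, the congenic and S rats of 1 diet did not overlap, but here the diets overlapped in every strain. Havcr1 was 1.34-fold lower in ET3x2 (-0.42 ± 0.06, limma adjusted p = 9.42e-05) and 1.39-fold lower in ET3x1 (-0.47 ± 0.06, limma adjusted p = 1.89e-05). This probe set is dim, and whether its lowest readings stand above background was not tested. A fit of only the brighter probe sets leaves it out.

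Vcam1 encodes an adhesion molecule for leukocyte integrins. On low salt S rats read 8.75, 8.58, 9.06, 8.59 and 8.89, ET3x1 rats 8.41, 8.30, 8.43 and 8.70, and ET3x2 rats 8.15, 8.43, 8.70 and 8.39. On high salt S rats read 9.21, 9.23, 9.35, 9.02 and 8.90, ET3x1 rats 8.93, 8.59, 8.73 and 8.81, and ET3x2 rats 8.88, 8.65, 8.67 and 8.34. The congenic rats were mostly the lower ones, with overlap on low salt, and on high salt the ET3x2 rats all lay below the S rats. Averaged over diets Vcam1 was 1.35-fold lower in ET3x2 (-0.43 ± 0.08, limma adjusted p = 0.000664) and 1.27-fold lower in ET3x1 (-0.35 ± 0.08, limma adjusted p = 0.00295).

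Vim encodes vimentin, an intermediate filament protein of mesenchymal and dedifferentiated cells. S rats read 9.44, 9.60, 9.86, 9.68 and 9.65 on low salt and 9.93, 9.71, 9.99, 9.72 and 9.71 on high salt. ET3x2 rats read 9.27, 8.90, 9.44 and 9.26 on low salt and 9.80, 9.58, 9.57 and 9.47 on high salt. ET3x1 rats read 9.38, 9.20, 9.48 and 9.58 on low salt and 10.02, 9.68, 9.87 and 9.46 on high salt. The ET3x2 rats on low salt were the lowest as a group, where the highest of them reached the lowest S rat, and on high salt the strains overlapped. Vim was 1.25-fold lower in ET3x2 (-0.32 ± 0.08, limma adjusted p = 0.00459), and in ET3x1 the change was -0.14 ± 0.08 (limma adjusted p = 0.163).

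The other 5 genes did not pass the test in either strain with diets averaged. Lcn2 gave -0.02 ± 0.05 in both strains, with 95% intervals from -0.11 to 0.08 in ET3x2 and from -0.12 to 0.08 in ET3x1. Timp1 gave 0.02 ± 0.06 in ET3x2 and -0.07 ± 0.06 in ET3x1, Prom1 -0.16 ± 0.10 and -0.18 ± 0.10, Cd44 -0.08 ± 0.04 and -0.10 ± 0.04, and Clu -0.09 ± 0.07 and 0.01 ± 0.07. The dimmer Clu probe set was lower in ET3x2 (-0.20 ± 0.05, limma adjusted p = 0.00667) with a 95% interval from -0.31 to -0.10, and the brighter one was not called, with the same sign and an overlapping interval from -0.22 to 0.05. The difference between them was not tested. The dimmer Cd44 probe set gave 0.00 ± 0.07 in ET3x2 and -0.16 ± 0.07 in ET3x1 (limma adjusted p = 0.0687). Leaving out 1 rat made calls of some of these: without S rat 2 of high salt Prom1 was lower in ET3x2 (-0.23, adjusted p = 0.0485) and in ET3x1 (-0.25, adjusted p = 0.0274), and without S rat 3 of low salt Cd44 was lower in ET3x1 (-0.12, adjusted p = 0.0438). The ET3x1 change of the dimmer Cd44 probe set passed without S rat 1 of high salt, S rat 3 of low salt or ET3x2 rat 4 of high salt (0.0309 to 0.0451), and that of the dimmer Clu probe set (-0.12 ± 0.05) without S rat 3 of low salt (adjusted p = 0.0433).

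Between the congenic strains no member was called, beside 9.84% of all probe sets, and 1 of 9 (Vim, -0.17 ± 0.08) had an unadjusted p below 0.05. The 95% interval of the ET3x2 minus ET3x1 change ran from -0.16 to 0.23 for Spp1, from -0.09 to 0.19 for Havcr1 and from -0.27 to 0.09 for Vcam1. The strain calls with diets averaged held for Spp1, Havcr1, Vcam1 and Vim when any 1 of the 26 rats was left out, and with the Gapdh or beta-actin 3' to 5' difference as a covariate.

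**Figure D2:**
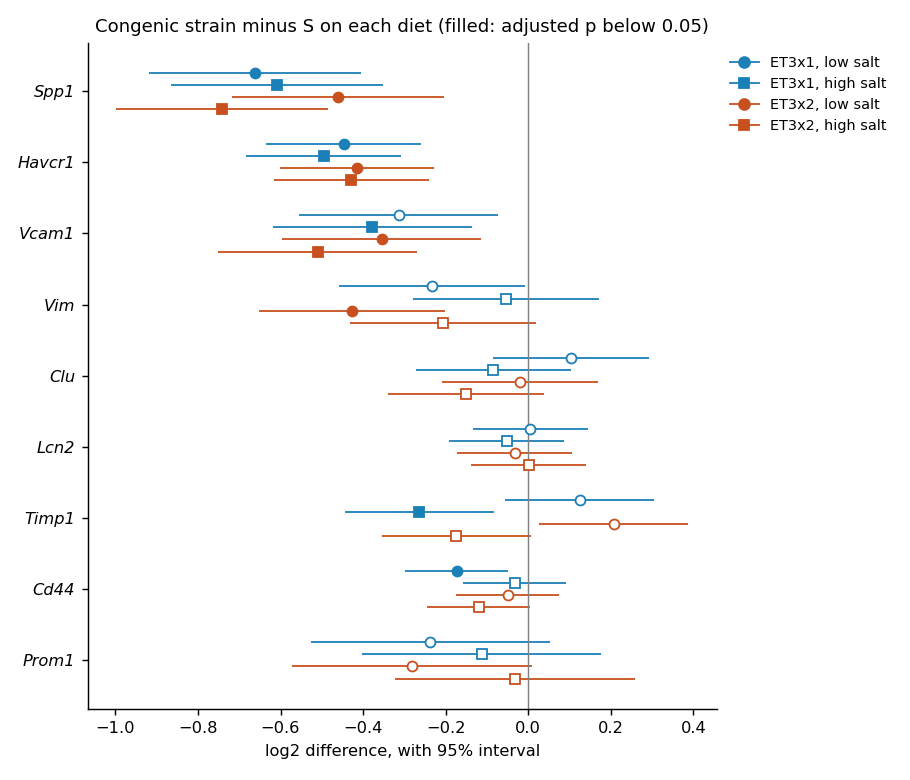
Log2 difference of each congenic strain from S within each diet for the 9 genes (brightest probe set), with the 95% interval of the limma fit; circles are low salt, squares high salt, and filled symbols have an adjusted p below 0.05. Spp1 and Havcr1 are filled in all 4 comparisons, between -0.41 and -0.74, while the intervals of Lcn2 all include 0.

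Within single diets Spp1 and Havcr1 were lower in both congenic strains on both diets. On low salt 4 of 9 genes were lower in ET3x2, beside 15.2% of all probe sets: Spp1 (-0.46 ± 0.13, limma adjusted p = 0.014), Vim (-0.43 ± 0.11, adjusted p = 0.0102), Havcr1 (-0.41 ± 0.09, adjusted p = 0.00343) and Vcam1 (-0.36 ± 0.12, adjusted p = 0.04). On high salt 3 of 9 were lower in ET3x2, beside 3.09%: Spp1 (-0.74 ± 0.13, limma adjusted p = 0.00316), Vcam1 (-0.51 ± 0.12, adjusted p = 0.0184) and Havcr1 (-0.43 ± 0.09, adjusted p = 0.0129). In ET3x1 on low salt 3 of 9 were lower, beside 23.2%, namely Spp1 (-0.66 ± 0.13, limma adjusted p = 0.000828), Havcr1 (-0.45 ± 0.09, adjusted p = 0.00149) and the hyaluronan receptor gene Cd44 (-0.17 ± 0.06, adjusted p = 0.0392). On high salt 4 of 9 were lower in ET3x1, beside 12.7%, namely Spp1 (-0.61 ± 0.13, limma adjusted p = 0.00275), Havcr1 (-0.50 ± 0.09, adjusted p = 0.00129), Vcam1 (-0.38 ± 0.12, adjusted p = 0.0346) and Timp1 (-0.26 ± 0.09, adjusted p = 0.0471). The dimmer Clu probe set was lower on low salt in ET3x2 (-0.24 ± 0.075) and in ET3x1 (-0.21 ± 0.075). None of the 9 genes was higher in a congenic strain on either diet.

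Several of these single-diet calls turned on 1 rat. For Vcam1 in ET3x2 the low-salt call was lost without S rat 1, 3 or 5 or ET3x2 rat 1, 2 or 4 of that diet (adjusted p from 0.0588 to 0.183), and the high-salt call without S rat 1, 2 or 3 or ET3x2 rat 2 or 4 (0.0505 to 0.1). For Vcam1 in ET3x1 the high-salt call was lost without S rat 1, 2 or 3 or ET3x1 rat 2, 3 or 4 (0.0679 to 0.1), and the low-salt change, at an adjusted p of 0.0531, passed without any of 8 single rats. The Vim call on low salt was lost without ET3x2 rat 2 (-0.32, adjusted p = 0.0642). The Cd44 call was lost without S rat 1 or 4 or ET3x1 rat 2, 3 or 4 of low salt (0.0561 to 0.113). The Timp1 call was lost without any of 14 single rats (0.0516 to 0.141), among them 7 of the 9 rats compared, and Timp1 passed as higher in ET3x2 on low salt without S rat 3 of that diet (0.26, adjusted p = 0.0494). For the dimmer Clu probe set the low-salt call was lost in ET3x2 without S rat 1 or 4 or ET3x2 rat 1 or 2 (0.0544 to 0.134), and in ET3x1 without any of 9 single rats (0.05 to 0.162). With the Gapdh difference as a covariate, Havcr1 alone was called among the 9 genes in ET3x2 on low salt and Spp1 alone in ET3x1 on high salt. In that fit Havcr1 in ET3x1 on high salt was at -0.41 ± 0.13 (limma adjusted p = 0.104), and Spp1 in ET3x2 on low salt at -0.35 ± 0.14 (limma adjusted p = 0.106).

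Markers of cell types were counted beside the same background of 24.8% of all probe sets called in ET3x2 and 30.4% in ET3x1. All 4 measured podocyte markers were lower in both congenic strains, among them Nphs1, which encodes nephrin of the slit diaphragm (-0.47 ± 0.07 in ET3x2 and -0.59 ± 0.07 in ET3x1), and Podxl (-0.37 ± 0.06 and -0.53 ± 0.06). The summed podocyte signal lay between 10.32 and 10.64 (log2) in S rats, between 9.85 and 10.24 in ET3x1 rats and between 9.98 and 10.39 in ET3x2 rats. Of 11 leukocyte markers 3 were higher and none lower in each congenic strain, a share near the background, with Coro1a at 0.40 ± 0.09 and 0.41 ± 0.09 and Fcer1g at 0.39 ± 0.07 and 0.37 ± 0.07. Summed leukocyte signal lay between 12.63 and 13.09 in S, between 13.00 and 13.22 in ET3x1 and between 12.84 and 13.24 in ET3x2. Of 6 endothelial markers 1 was higher and 1 lower in ET3x2, and 2 were lower in ET3x1, also near the background. The receptor gene Kdr was at -0.60 ± 0.07 and -0.58 ± 0.07. The marker that was higher in ET3x2 was Vwf (0.27 ± 0.09, limma adjusted p = 0.0269). Summed endothelial signal lay between 11.23 and 11.49 in S, between 10.93 and 11.27 in ET3x1 and between 11.01 and 11.24 in ET3x2. Of 7 mesenchymal and smooth muscle markers 3 were lower in ET3x2, and in ET3x1 2 were lower and 1 higher, with summed signal between 11.62 and 12.28 in S, 11.84 and 12.08 in ET3x1, and 11.72 and 12.11 in ET3x2. The array scale has no true zero. The podocyte marker Nphs1 and the endothelial marker Vwf lay below the chip median, while Podxl and Kdr lay above it. Of 7 proximal tubule markers 3 were lower in ET3x2, and 2 were lower and 1 higher in ET3x1. Their summed signal lay between 15.04 and 15.28 in S, 15.06 and 15.22 in ET3x1, and 14.97 and 15.11 in ET3x2. Of 5 thick ascending limb and distal markers 1 was lower in ET3x2. Of 5 collecting duct markers 1 was higher and 1 lower there. No marker of these latter segments was called in ET3x1. The part of any of these cell types in the lower Spp1, Havcr1, Vcam1 and Vim signal was not tested.

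The diet comparison asks what 24 hours of high salt did to the same genes. Averaged over the strains, 6 of 9 genes were higher on high salt and 1 was lower, beside 9.37% of all probe sets. Spp1 rose 1.57-fold (0.65 ± 0.07, limma adjusted p = 2.49e-06), and Vim, Vcam1, Lcn2, Timp1 and Clu rose by smaller amounts, while Prom1 fell 1.39-fold (-0.48 ± 0.08, limma adjusted p = 0.000433). Havcr1 (0.11 ± 0.05, limma adjusted p = 0.192) and Cd44 (0.06 ± 0.04, limma adjusted p = 0.349) did not pass. The median change of the 9 genes was 0.22, against -0.01 over all probe sets. The Spp1 change was larger in size than that of 99.9% of all probe sets and the Prom1 change than that of 99.5%.

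Lcn2 encodes neutrophil gelatinase-associated lipocalin, a secreted protein that binds iron-carrying siderophores. S rats read 7.45, 7.62, 7.50, 7.40 and 7.46 on low salt and 7.69, 7.80, 7.84, 7.81 and 7.74 on high salt. ET3x1 rats read 7.50, 7.58, 7.47 and 7.42 on low salt and 7.77, 7.59, 7.75 and 7.80 on high salt. ET3x2 rats read 7.33, 7.48, 7.34 and 7.67 on low salt and 7.81, 7.84, 7.68 and 7.79 on high salt. The diets did not overlap in any strain, and the strains lay on top of each other within a diet. Lcn2 rose 1.22-fold over the strains (0.28 ± 0.04, limma adjusted p = 4.35e-05) and was the one gene called in each strain apart.

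Timp1 encodes a secreted inhibitor of matrix metalloproteinases. S rats read 7.97, 7.89, 8.17, 7.74 and 8.12 on low salt and 8.54, 8.49, 8.50, 8.33 and 8.40 on high salt. ET3x1 rats read 8.02, 8.15, 8.09 and 8.15 on low salt and 8.43, 8.11, 8.11 and 8.12 on high salt. ET3x2 rats read 8.34, 8.07, 8.19 and 8.15 on low salt and 8.29, 8.36, 8.04 and 8.42 on high salt. The diets were apart in S and overlapped in both congenic strains, and in ET3x1 1 high-salt rat stood above 3 that were nearly equal. Over the strains Timp1 rose 1.16-fold (0.22 ± 0.05, limma adjusted p = 0.00689).

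Prom1 encodes prominin-1, a membrane glycoprotein of cell protrusions found on some tubule and progenitor cells. S rats read 9.97, 10.12, 10.41, 10.16 and 10.24 on low salt and 9.57, 8.98, 9.95, 9.58 and 9.82 on high salt. ET3x1 rats read 10.03, 9.96, 9.97 and 9.82 on low salt and 9.50, 9.51, 9.47 and 9.38 on high salt. ET3x2 rats read 9.94, 10.03, 9.44 and 10.19 on low salt and 9.77, 9.64, 9.46 and 9.32 on high salt. The high-salt rats were the lower ones, without overlap in S and ET3x1 and with 1 low ET3x2 rat overlapping. The lowest value of all, 8.98, was that of a single S rat on high salt, and without it the change in S was -0.45 (adjusted p = 0.0832).

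Clu encodes clusterin, a secreted chaperone. S rats read 8.91, 9.06, 9.26, 8.96 and 9.27 on low salt and 9.53, 9.57, 9.34, 9.34 and 9.17 on high salt on the brighter probe set. ET3x1 rats read 9.17, 9.21, 9.17 and 9.23 on low salt and 9.32, 9.36, 9.25 and 9.29 on high salt, and ET3x2 rats 9.33, 9.10, 8.76 and 9.10 on low salt and 9.27, 9.20, 9.18 and 9.30 on high salt. The diets were apart in ET3x1, where the difference was small, and overlapped in the other strains. Clu rose 1.14-fold over the strains on this probe set (0.19 ± 0.05, limma adjusted p = 0.0239), and the dimmer one gave 0.11 ± 0.04 (limma adjusted p = 0.128). Vim rose 1.23-fold (0.30 ± 0.06, limma adjusted p = 0.00309) and Vcam1 1.23-fold (0.30 ± 0.07, limma adjusted p = 0.00613), in the values given above. Vim overlapped between diets in S and ET3x1 and was apart in ET3x2, and Vcam1 overlapped in all 3 strains. Cd44 read between 8.06 and 8.28 in S rats on low salt and between 8.14 and 8.23 on high salt. It read between 7.91 and 8.06 in ET3x1 rats on low salt and between 8.11 and 8.23 on high salt, and between 7.98 and 8.23 against 8.01 and 8.13 in ET3x2 rats. Its ET3x1 diets were apart, with a change of 0.17 ± 0.06 (limma adjusted p = 0.0826).

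**Figure D3:**
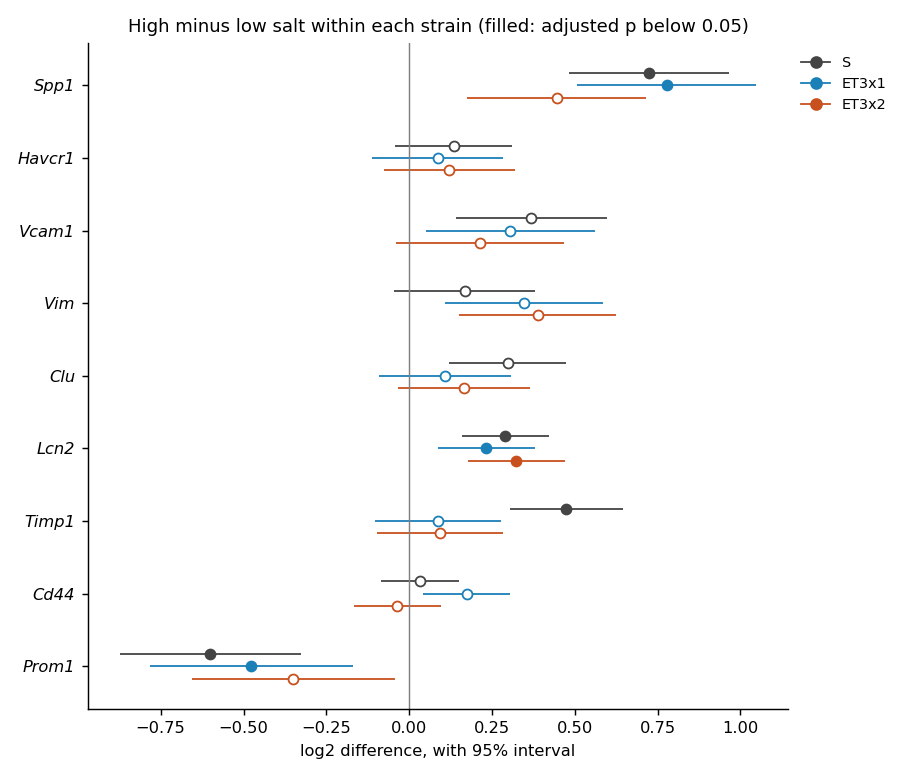
Log2 difference, high minus low salt, within each strain for the 9 genes (brightest probe set), with the 95% interval of the limma fit; filled points have an adjusted p below 0.05. Spp1 lies between 0.45 and 0.78 in the 3 strains, Lcn2 is filled in all 3, Timp1 is filled in S at 0.47 and lies at 0.09 in both congenic strains, and Prom1 lies below 0 in all 3.

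Within S alone 3 of 9 genes were higher and 1 lower on high salt, beside 1.22% of all probe sets. Spp1 (0.73 ± 0.12, limma adjusted p = 0.00142), Timp1 (0.47 ± 0.08, adjusted p = 0.00285) and Lcn2 (0.29 ± 0.06, adjusted p = 0.0213) rose, and Prom1 fell (-0.60 ± 0.13, adjusted p = 0.0223). In ET3x1, 2 of 9 were higher and 1 lower, beside 10.1%: Spp1 (0.78 ± 0.13, limma adjusted p = 0.000325), Lcn2 (0.23 ± 0.07, adjusted p = 0.0358) and Prom1 (-0.48 ± 0.15, adjusted p = 0.0394). In ET3x2 only Lcn2 was called (0.32 ± 0.07, limma adjusted p = 0.0396), beside 0.351%, with Spp1 at 0.45 ± 0.13 (adjusted p = 0.155), Vim at 0.39 ± 0.12 (adjusted p = 0.16) and Prom1 at -0.35 ± 0.15 (adjusted p = 0.363). Vcam1 gave 0.37 ± 0.11 in S, 0.31 ± 0.12 in ET3x1 and 0.21 ± 0.12 in ET3x2, and was called in none of them. The Lcn2 call was lost in S without S rat 2 or 4 of high salt or 1 or 4 of low salt (adjusted p from 0.0503 to 0.0815). In ET3x1 it was lost without rat 1, 3 or 4 of high salt or 3 or 4 of low salt (0.0742 to 0.112), and in ET3x2 without any of 8 single rats, 6 of them of that strain (0.0515 to 0.17). The Prom1 call was lost in S without S rat 1 or 2 of high salt or 4 of low salt, and in ET3x1 without any 1 of its 8 rats (0.0534 to 0.096). Clu in S passed without S rat 5 of high salt or 3 or 5 of low salt, or without ET3x2 rat 3 of low salt (0.34 to 0.35 in S when an S rat was left out). Vim in ET3x1 passed without any of 6 single rats, and Vcam1 in S without S rat 3 of low salt (0.44, adjusted p = 0.0322).

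The averaged salt calls depended on whether the 3' to 5' measure of the arrays described above was in the fit. With the Gapdh difference as a covariate none of the 9 genes was called, and 28 of the 31042 probe sets were, against 2908 without it. The changes themselves stayed in the same direction with wider errors: Spp1 at 0.49 ± 0.11 (limma adjusted p = 0.0894), Lcn2 at 0.29 ± 0.07 (adjusted p = 0.0879), Timp1 at 0.33 ± 0.08 (adjusted p = 0.125) and Prom1 at -0.58 ± 0.13 (adjusted p = 0.0879). Vcam1 was at 0.28 ± 0.11 (limma adjusted p = 0.512), Vim at 0.22 ± 0.10 (adjusted p = 0.613) and Clu at 0.15 ± 0.09 (adjusted p = 0.72). With the beta-actin difference in its place Spp1, Lcn2 and Prom1 were called (374 of all probe sets). Averaged over S and ET3x2 alone Spp1, Lcn2, Timp1 and Prom1 were called, with Clu and Vim at an adjusted p of 0.0576 and Vcam1 at 0.0627. In S, where the Gapdh difference was 0.812 on high and 0.827 on low salt, the same 4 genes were called with that covariate as without it: Spp1 0.71 ± 0.11, Timp1 0.48 ± 0.08, Lcn2 0.29 ± 0.07 and Prom1 -0.61 ± 0.13. The beta-actin difference in S was 0.923 ± 0.174 on high and 1.14 ± 0.256 on low salt (n = 5 each), and with it as the covariate Spp1 (0.68 ± 0.13), Timp1 (0.48 ± 0.09) and Prom1 (-0.71 ± 0.13) were called in S, while Lcn2 was not (0.28 ± 0.07, limma adjusted p = 0.0696). In the congenic strains the Gapdh difference and the diet moved together, and with the covariate no member was called there.

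**Figure D4:**
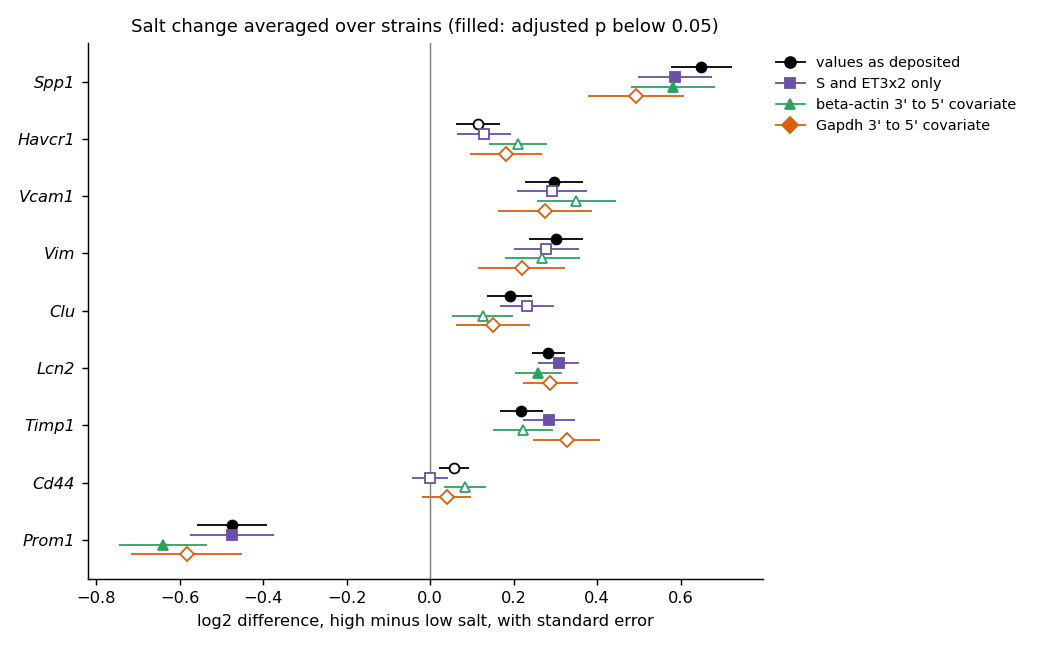
Log2 difference, high minus low salt, averaged over the strains for the 9 genes (brightest probe set) with standard errors, for the values as deposited, for S and ET3x2 only, and with the 3' to 5' difference of beta-actin or Gapdh as a covariate; filled symbols have an adjusted p below 0.05. Spp1 keeps a value between 0.49 and 0.65 in the 4 fits, and with the Gapdh covariate no symbol is filled.

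Markers of other cell types were also counted for the diet, beside 9.37% of all probe sets called. Averaged over strains 3 of 7 mesenchymal and smooth muscle markers were higher on high salt, Tagln by 0.52 ± 0.09, Acta2 by 0.42 ± 0.06 and Des by 0.12 ± 0.04, and none was lower. Their summed signal in S lay between 11.62 and 12.11 on low salt and between 12.07 and 12.28 on high salt, and in the congenic strains between 11.73 and 12.02 on low salt and between 11.72 and 12.11 on high salt. Of 11 leukocyte markers 2 were higher and none lower, and 2 of 6 endothelial and 2 of 4 podocyte markers were lower. All these counts are from the fit without the Gapdh covariate, with which far fewer probe sets were called over the strains. The part of these cell types in the higher Vim, Vcam1 and Timp1 signal was not tested.

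The last question of the design is whether the strains answered high salt differently. No member passed the test of that difference between ET3x2 and S, beside 0.0258% of all probe sets, between ET3x1 and S, beside 2.54%, or between the congenic strains, beside 0.0934%. In each of the 3 tests 1 of 9 genes had an unadjusted p below 0.05, Timp1 in both comparisons with S and Cd44 in the other. For Timp1 the difference in salt response was -0.38 ± 0.12 between ET3x2 and S (95% interval from -0.64 to -0.13, limma adjusted p = 0.385) and -0.39 ± 0.12 between ET3x1 and S (from -0.64 to -0.13, adjusted p = 0.0887). The ET3x1 difference passed without S rat 3 of low salt (-0.44, adjusted p = 0.0406) and without ET3x1 rat 1 of high salt (-0.47, adjusted p = 0.0351), the rat that stood apart. For Spp1 the difference was -0.28 ± 0.18 in ET3x2 (95% interval from -0.64 to 0.08) and 0.05 ± 0.18 in ET3x1 (from -0.31 to 0.42), and for Lcn2 0.03 ± 0.10 and -0.06 ± 0.10. A smaller response in ET3x2 than in S was therefore not shown for Spp1, and the intervals do not show an equal one.

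Further genes known from injured tubules were examined as a list of 38, of which 37 were measured. They did not move one way with strain: 8 were higher and 8 lower in ET3x2 than in S, and 7 higher and 6 lower in ET3x1, beside 24.8% and 30.4% of all probe sets, with medians of 0.05 and 0.00 against 0.01 and -0.01 over all. The keratin genes Krt8 (0.46 ± 0.09 in ET3x2 and 0.48 ± 0.09 in ET3x1) and Krt19 (0.56 ± 0.12 and 0.34 ± 0.12) were higher in both, against the direction of Spp1 and Havcr1. Ccl2, which encodes a chemokine for monocytes, was lower in both (-0.57 ± 0.11 and -0.34 ± 0.11). Cxcl10, a chemokine gene induced by interferon, was lower in ET3x1 (-0.35 ± 0.09). On high salt Cxcl10 was also lower in ET3x2 (-0.53 ± 0.13, limma adjusted p = 0.0237). The transcription factor gene Sox4 was lower in ET3x2 (-0.38 ± 0.07), and Sox9, of tubule repair, was higher in ET3x1 (0.47 ± 0.07). At most 3 called genes each way were named per comparison, so a gene named for 1 strain may have been called in both. Ccl2 and Sox9 lay below the chip median. In ET3x1 the Ccl2 call was lost without rat 2 of low salt (-0.30, adjusted p = 0.052), and the Krt19 call with the Gapdh covariate (0.30, adjusted p = 0.118) or without any of 10 single rats (adjusted p from 0.051 to 0.071). On high salt 10 of the 37 were higher and 2 lower over the strains, beside 9.37% of all probe sets, with a median of 0.02 against -0.01. Cxcl10 (0.58 ± 0.08), Ccl2 (0.54 ± 0.09) and the annexin gene Anxa2 (0.34 ± 0.06) rose most, and the integrin gene Itgb6 (-0.44 ± 0.10) fell most. With the Gapdh covariate none of these 4 was called, with Cxcl10 at 0.54 ± 0.12 (limma adjusted p = 0.0879), Ccl2 at 0.42 ± 0.15 (adjusted p = 0.378), Anxa2 at 0.30 ± 0.10 (adjusted p = 0.322) and Itgb6 at -0.55 ± 0.16 (adjusted p = 0.234). In S apart Cxcl10 (0.70 ± 0.12), Ccl2 (0.62 ± 0.15) and Anxa2 (0.57 ± 0.09) were called with it and without it. The Ccl2 call in S was lost without S rat 1, 2 or 3 of high salt or 2 or 4 of low salt (adjusted p from 0.0577 to 0.112).

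Of 14 tubule transport and hormone genes that injury is known to lower, none was higher and 3 were lower in ET3x2 than in S: Slc12a1, the sodium, potassium and chloride cotransporter gene of the thick ascending limb (-0.51 ± 0.09), Egf (-0.43 ± 0.09) and Cubn, a gene of protein uptake in the proximal tubule (-0.35 ± 0.06). Kl, the klotho gene, lay below the chip median. In ET3x1 3 were higher and 1 lower, with Kl at 0.41 ± 0.08 and Cubn at -0.27 ± 0.06. Both counts are near the 24.8% and 30.4% called among all probe sets and are no result about the list, whose medians were -0.07 and -0.03. On high salt, without the Gapdh covariate, 2 were higher over the strains and none lower, beside 9.37%, with a median of 0.03.

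Of 19 genes for partners of the members 15 were measured. In ET3x2 3 were higher and 6 lower than in S, beside 24.8% of all probe sets, and in ET3x1 none was higher and 2 were lower, beside 30.4%, with medians of -0.08 and 0.00. Lrp2, which encodes megalin, an uptake receptor for lipocalin, was lower in both (-0.52 ± 0.06 and -0.36 ± 0.06). Mmp9, which encodes a metalloproteinase that Timp1 protein inhibits, was also lower in both (-0.46 ± 0.07 and -0.60 ± 0.07) and lay below the chip median. On high salt, without the Gapdh covariate, 3 were higher and 1 lower over the strains, beside 9.37%. Among the higher ones were the ezrin family genes Msn (0.24 ± 0.05) and Rdx (0.24 ± 0.05), whose products anchor CD44 to actin. Mmp14, which encodes a membrane-bound metalloproteinase, stood out within strains. S rats read 8.03, 8.44, 9.19, 8.49 and 8.85 on low salt and 9.13, 9.43, 9.68, 9.69 and 9.66 on high salt. ET3x1 rats read 9.79, 9.70, 9.72 and 9.68 on low salt and 9.26, 8.98, 8.81 and 8.69 on high salt, and ET3x2 rats 9.75, 9.44, 9.21 and 9.54 on low salt and 9.91, 9.85, 9.55 and 9.43 on high salt. High-salt rats were mostly above low-salt rats in S and all below them in ET3x1. Mmp14 rose by 0.92 ± 0.15 in S (limma adjusted p = 0.00166) and fell by 0.79 ± 0.17 in ET3x1 (limma adjusted p = 0.00329), and the difference between those responses was -1.70 ± 0.23 (limma adjusted p = 0.000126). With the Gapdh covariate the ET3x1 change was -0.93 ± 0.27 and was not called (limma adjusted p = 0.192), and the difference was -1.84 and was called (limma adjusted p = 0.00398).

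Across the 26 rats the members shared a profile only in part. Spp1 correlated with Vcam1 (r = 0.87), Vim (0.73), Havcr1 (0.69), Lcn2 (0.60), Timp1 (0.56), Clu (0.55) and Cd44 (0.53). Its correlation with Prom1 was -0.32, and that of Clu with Cd44 was -0.13. These values include the differences between groups. The probe sets most like Spp1, by Pearson correlation among 11132 candidates on both chips at or above the chip median, were Casp2 (r = 0.92, Spearman's rho 0.91), Cxcl10 (0.92 and 0.89) and Septin11 (0.91 and 0.91). After subtraction of the 6 group means these fell to 0.54, 0.71 and 0.59. Vcam1 was most like Cd164 (0.91 and 0.87), Fn1, the fibronectin gene (0.90 and 0.85), and Col12a1 (0.89 and 0.86). Clu was most like Vcp, Anxa2 and Septin9 (r of 0.87 each), and Vim like Mal2 (0.87), Tspan12 (0.86) and Rad21 (0.85). Lcn2 was most like Apcs (0.82), Tubb5 (0.81) and Gabrp (0.79), Timp1 like Niban2 (0.83), Mcee (0.80) and Clic1 (0.80), and Cd44 like Herc3, Pros1 and Zzz3 (0.78, 0.78 and 0.76). Prom1 had the weakest matches, Me1 (0.76), Akr7a3 (0.69) and Rcan2 (0.68). After subtraction of the group means the matches of Lcn2 stood at 0.67, 0.45 and 0.41, in the order given. Those of Prom1 stood at 0.65, 0.51 and 0.27, and those of Clu at 0.87, 0.79 and 0.77. Of the 36 pairs of members, Spp1 and Vcam1 were the most alike within groups (r = 0.60), followed by Vim and Vcam1 (0.56), and Clu and Cd44 the most opposed (-0.56). The rats of these correlations share groups and the values of 1 rat share an array, so they describe the samples and carry no test.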

How the data were processed

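Total RNA of 1 left kidney per rat was labelled as biotinylated cRNA and hybridised to an RAE230A and an RAE230B chip, per the labels' protocols. The deposited values are 1 log2 signal per probe set and rat, a scale read from their range, and no source used here names the authors' software for summary and normalisation. Symbols came from the platform annotation: 20253 of the 31042 probe sets tested had 1 symbol, 411 several and 10378 none. From these values limma 3.58.1 (R 4.3.3) fitted 6 group means per chip, with a trended prior and 20 residual degrees of freedom, and p-values were Benjamini-Hochberg adjusted over both chips. No brightness filter was set. The fit was checked on simulated data with known changes. Rats are numbered in deposit order within a group and are not paired. All members are named, and of each list the called genes of largest change, at most 3 each way per comparison. Likeness to a member was ranked by Pearson correlation. The members and all lists were chosen with earlier results of these data known. Alternatives were a brightness filter, quantile normalisation, median centring, array weights, an untrended prior, strains fitted alone, 3' to 5' covariates and leaving out each rat.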

Additional observations from a re-analysis of the deposited data

Results flagged for a closer look

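Among the 66 combinations of a member probe set and a group, 1 held a rat far from the others: Timp1 read 8.43 in ET3x1 rat 1 on high salt, and the other 3 rats of that group read 8.11 to 8.12. Chance sets about 1 in 20 groups apart in this way, or 3.3 of 66. No cause was tested.

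Genes of the lists, none of them a member, answered salt differently in ET3x1 and S by the test of that difference (limma, adjusted p below 0.05). Mmp14 differed by -1.70, as described above. The response of Itgav, an integrin subunit gene whose product binds osteopontin, differed by 0.46, that of S100a4 by -0.57, and that of Slc12a3, the distal sodium and chloride cotransporter gene, by -0.66. Kl, which lay below the chip median, differed by 0.67 and Col1a1, a fibrillar collagen gene, by -0.74. With the Gapdh 3' to 5' difference as a covariate Mmp14 kept its call. The other 5 were then not called (adjusted p from 0.109 to 0.398), with Itgav at 0.39, S100a4 at -0.65, Slc12a3 at -0.43, Kl at 0.39 and Col1a1 at -0.73. Leaving out 1 rat ended the call of Col1a1 for 10 of 26 rats, of Itgav for 4 and of Kl for 3. No cause was tested.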

How the results depend on the processing

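Counts are of the 9 genes called. Averaged over strains, the 7 salt calls became 0 with the Gapdh covariate, 3 with beta-actin and 4 over S and ET3x2 only, an alternative chosen after seeing the data as was beta-actin. Salt in S gave 4, and 2 in a fit of S alone. Salt in ET3x1 gave 3, 5 with array weights and 0 with Gapdh. Salt in ET3x2 gave 1, 2 with array weights, and 0 with Gapdh, with beta-actin or in a fit of ET3x2 alone. ET3x2 against S on low salt gave 4, and 1 with Gapdh. ET3x1 against S gave 3 on low salt, 5 with quantile normalisation, and on high salt 4, 1 with Gapdh and 2 with beta-actin. The difference in salt response between ET3x1 and S gave 0, and 1 with array weights. Leaving out 1 rat gave 7 to 7 for averaged salt, 2 to 6 in S, 1 to 4 in ET3x1 and 0 to 1 in ET3x2. For ET3x2 against S it gave 4 to 5 averaged, 2 to 4 on low salt and 2 to 3 on high salt. For ET3x1 against S it gave 3 to 4 averaged, 2 to 4 on each diet, and 0 to 1 for the salt response. Fewer rats per fit accompany the leave-one-out values, and beyond that the causes were not tested. No called change reversed. A brightness filter leaves Havcr1 untested. No paired analysis was possible because rats carry no pairing in the labels and their numbers only follow deposit order. The number of arrays limits precision.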
